A study of Mus musculus with 16 samples.

Results

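Gene expression was compared between 9 mouse mammary tumours, each founded by 1 tumour-initiating cell (TIC) and chosen because their sample descriptions name a single TIC as the source. They are 9 of the 16 tumours in the series, and no other group enters the results. All 9 were secondary MMTV-Neu tumours of the strain FvB, below 1.0 cm in diameter, each measured once as biotin-labelled total RNA (extracted with Trizol) on an Illumina mouse bead array. MMTV-Neu is a transgene that expresses the Neu oncogene, the rat form of Erbb2, from the mouse mammary tumour virus promoter, which is active mainly in mammary epithelium. The labels do not give the genotype of the hosts, nor whether tumours shared a donor mouse or cell preparation. The p-values below treat the 9 tumours as independent, which the labels cannot show, and speak only for these tumours. The tumours are called tumours 1 to 9, which are names and not an order.

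A tumour-initiating cell is a cell able to found a new tumour after transplantation. A tumour grown from it holds the descendants of that cell together with fibroblasts, vessels, fat and immune cells of the host. A bulk RNA sample averages over all of them, so fewer cells of a type and less RNA per cell cannot be told apart. Spread was read gene by gene for lists linked to epithelium and cell division (keratins, milk proteins, cell cycle genes). The same was done for lists linked to host tissue (collagens, antigen-presenting and T cell genes). Which cells made each RNA was not measured.

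The arrays were alike in brightness and detection. Mean raw intensity lay between 866 and 1031, and between 12717 and 13163 of 25697 probes were detected at p under 0.05. Some luminal epithelial markers were bright. The keratins Krt8 and Krt18 averaged 13.78 and 13.24 on the log2 scale of normalized intensity, and the luminal transcription factor Gata3 12.19. Of 19 luminal genes listed 11 were measured, and others of these were dim, with means of 6.96 for Esr1 and 6.73 for Cd24a. A value near 5 on this scale is where undetected probes lie. Where a gene was undetected in some tumours its level there is an upper bound, and its spread is then a lower bound.

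Most genes differed little between the tumours. Over 9580 genes, the median standard deviation (SD) between tumours was 0.25, and the 5th and 95th percentiles were 0.11 and 0.79. An SD of at least 1, which means a typical deviation of at least 2-fold, was reached by 264 genes, or 2.76% of all genes. An SD under 0.2 was found for 3195 genes. For genes with several kept probes, the lowest correlation of the brightest probe with another was taken. Its median was 0.97 for the 57 such genes with an SD of at least 1, 45 of them above 0.8. For all 2568 genes with several probes it was 0.66, with 880 above 0.8. The 57 were picked by the spread of 1 of these same probes, and a large spread by itself raises the correlation, so this is no independent check.

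**Figure D1:**
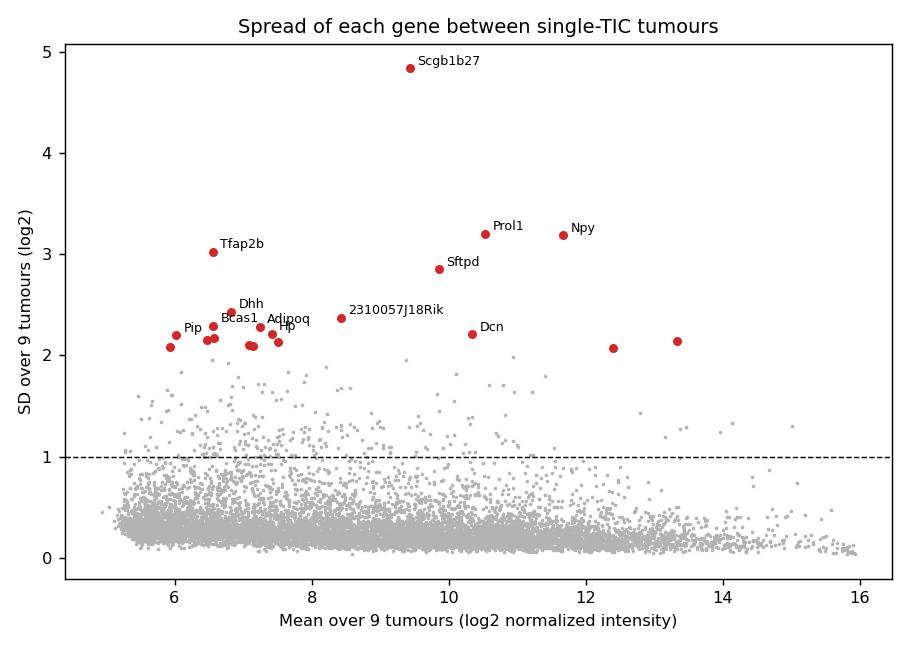
Mean (x axis, log2 normalized intensity) against SD over the 9 tumours (y axis, log2) for each of 9580 genes as grey points, with the 20 largest SDs in red and an SD of 1 as a dashed line. Scgb1b27 stands highest at 4.84, and most genes lie far below the line.

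Several of the genes with the largest spread encode secreted glandular proteins, each far higher in some tumours than in others. Scgb1b27, a secretoglobin of the androgen-binding protein family, had an SD of 4.84 (95% interval 3.27 to 9.27, n = 9). It read 15.98 in tumour 4, 15.96 in tumour 5 and 15.51 in tumour 7, and between 5.11 and 7.51 in the other 6. The highest value of any gene was 15.98, so these 3 readings lie at the top of the scale, no order among them is read, and the SD is a lower bound. The same limit holds for the other values above 15 given for single genes. The same 3 tumours were also highest for a further secretoglobin, Scgb2b26, at 15.52, 15.62 and 15.66, against 12.87 to 13.46 elsewhere. Prol1, a proline-rich secreted protein of lacrimal and salivary glands, ranged from 6.53 in tumour 6 through a median of 10.01 to 15.94 in tumour 7, with an SD of 3.20. Pip, the prolactin-induced protein of exocrine glands, was high in tumours 4 and 5 alone (9.63 and 10.05) and at most 5.94 elsewhere. Dcpp1, a demilune cell and parotid protein, was high in tumour 1 alone, at 13.01 against 6.11 to 7.77. High tumours for Scgb1b27, Scgb2b26, Prol1 and Pip thus overlapped without being the same set, while the high tumour for Dcpp1 lay outside the sets of Scgb1b27, Scgb2b26 and Pip.

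A second set of variable genes, among them developmental regulators, was high in a few tumours and near or not far above background in the others. Tfap2b, a transcription factor of the AP-2 family, was detected in 2 of 9 tumours and read 11.94 in tumour 7 and 11.83 in tumour 8, against 4.89 to 5.17 in the other 7. All 4 of its probes were detected in 2 tumours. Bcas1, a gene amplified in some human breast cancers, was highest in the same tumours, at 10.34 and 10.63 in tumours 7 and 8. It was detected in 4 tumours and read at most 6.62 elsewhere. Dhh, which encodes the ligand desert hedgehog, was high in tumour 4 (11.02), tumour 7 (10.36) and tumour 8 (8.37), and at most 5.76 in the rest.

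The HOXB genes, which form a cluster of neighbouring homeobox transcription factor genes, divided the tumours in another way. Hoxb5 read 10.28 and 10.46 in tumours 1 and 2 and between 4.81 and 5.88 in the other 7, an SD of 2.17 (95% interval 1.47 to 4.17). Hoxb4 read 9.85 and 10.09 in the same pair and at most 6.03 elsewhere. Hoxb2 read 9.91 and 9.70 there and at most 6.26 elsewhere. Hoxb6 read 8.92 and 7.80 there and at most 5.15 elsewhere. Tumours 1 and 2 were paired from these same values, so their separation from the rest in these 4 genes is only a description. Over all 9580 genes, 5 had a largest gap between neighbouring tumours of at least 2 with this pair alone above it. Hoxb7 was high in tumour 1 alone, at 10.05, and read 5.81 in tumour 2. Hoxb3, which lies within the same cluster, has 2 kept probes that disagree. One read 6.17 and 6.41 in tumours 1 and 2 and at most 5.68 elsewhere, with an SD of 0.56. The other had an SD of 0.32, and in tumours 1 and 2 it lay within the 4.95 to 6.07 of the rest. In the HOXA cluster, Hoxa5 was highest in tumours 1, 2 and 5 at 9.53, 9.10 and 8.98, with a lowest value of 5.04 in tumour 4. Zbtb2, a zinc finger repressor, was also higher in tumours 1 and 2, at 11.44 and 11.15 against 7.72 to 8.81.

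**Figure D2:**
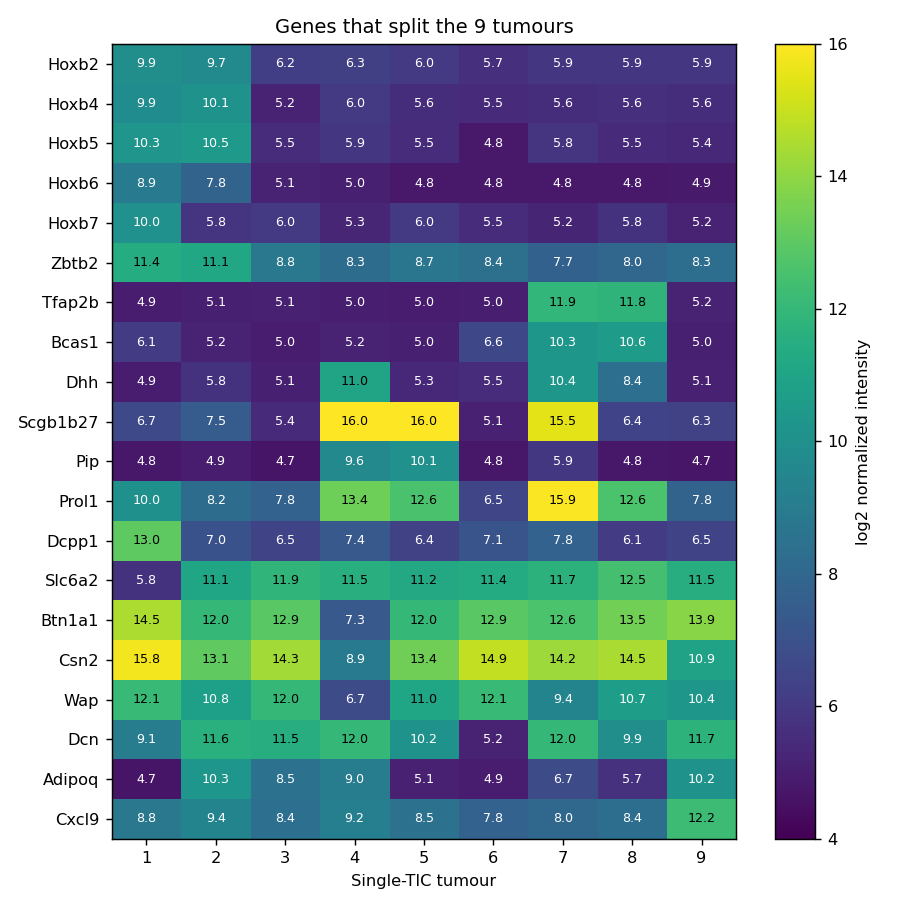
Levels of 20 genes (rows) in tumours 1 to 9 (columns), as log2 normalized intensity by colour and printed value, 1 array per tumour. Hoxb2, Hoxb4, Hoxb5 and Hoxb6 are high in tumours 1 and 2, Tfap2b and Bcas1 in tumours 7 and 8, and Scgb1b27 in tumours 4, 5 and 7.

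Genes with a gap of at least 2 on the log2 scale between neighbouring tumours were counted after the values had been seen. There were 73. In 29 of them 1 tumour stood above the other 8, and in 22 of them 1 tumour stood below. Tumour 4 was the low one in 13 genes and tumour 2 the high one in 8. The genes low in tumour 1 included Slc6a2, the noradrenaline transporter, at 5.77 against 11.07 to 12.46, and Vsnl1, a neuronal calcium sensor, at 5.22 against 8.81 to 9.76.

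Milk protein genes had the widest spread of the milk, luminal, basal and proliferation lists, and tumour 4 was the low one. Of 18 measured milk genes 9 had an SD of at least 1, where 2.76% of all genes did. Their median SD was 1.03 against 0.25 for all genes. Csn2, which encodes beta-casein, had an SD of 2.15 (95% interval 1.45 to 4.11), with a lowest value of 8.94 in tumour 4, a median of 14.23 and a highest of 15.78 in tumour 1. Btn1a1, butyrophilin of the milk fat globule membrane, read 7.34 in tumour 4 and between 11.99 and 14.50 elsewhere. Wap, whey acidic protein, read 6.73 in tumour 4 and between 9.40 and 12.13 elsewhere. Mfge8, a milk fat globule protein, read 11.86 in tumour 4 and between 14.38 and 15.93 elsewhere. Some other milk genes had smaller SDs. Csn3, kappa-casein, had the smallest SD of the genes eligible for that ranking, 0.032, at a mean of 15.81, close to the top of the scale. Elf5, a transcription factor of alveolar cells, had an SD of 0.25, and Lalba, alpha-lactalbumin, 0.35. The milk score, the mean over the list of each gene's deviation from its own 9-tumour mean, was -1.58 in tumour 4 and between -0.15 and 0.59 in the others, although the mean correlation between pairs of milk genes was 0.19. Glycam1 is on the milk list, and is also made by the vessels of lymph nodes. It was high in tumour 2 alone, at 10.98 against 4.68 to 7.26.

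The luminal list moved least of the epithelial lists. Its median SD was 0.27 over 11 measured genes, with 0.13 for Krt8 and 0.17 for Cdh1, the epithelial cadherin. Spdef, a transcription factor of secretory luminal cells, was the exception with an SD of at least 1: 1.19, from 6.44 in tumour 3 to 9.70 in tumour 4. Esr1, the oestrogen receptor, had an SD of 0.94, from 5.17 in tumour 1 to 8.15 in tumour 6. The basal and myoepithelial list spread more, with a median SD of 0.93 over 9 genes and 4 at 1 or above, against 2.76% of all genes. Krt17, a basal keratin, was detected in 3 tumours, at 9.03 in tumour 3, 8.06 in tumour 5 and 6.73 in tumour 9, and lay between 4.65 and 5.21 in the others. Lamb3, a laminin chain, ranged from 6.91 in tumour 4 to 10.92 in tumour 6. Pdpn, which fibroblasts express as well as basal cells, was low in tumour 6 at 5.22 and between 7.57 and 9.75 elsewhere. Basal genes did not move as a group, since their mean pairwise correlation was 0.07.

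Most fibroblast and matrix genes moved together, and tumour 6 had the lowest score. The list had a median SD of 0.74 over 21 genes, 6 of them at 1 or above, against 2.76% of all genes. Its mean pairwise correlation was 0.58. Dcn, the matrix proteoglycan decorin, had an SD of 2.21 (95% interval 1.49 to 4.23), and of 1.11 without tumour 6. It read 5.15 in tumour 6, where it lay near background, with a median of 11.48 and a highest value of 11.98, and the remaining tumours lay at 9.06 or above. Its neighbour on chromosome 10, Lum (lumican), had an r of 0.94 with it over the 9 tumours, which share the array and the tumour RNA. Lum read 4.60 in tumour 6 and 5.60 in tumour 1, against 6.08 to 8.42 in the rest. Fbln1, fibulin 1, read 5.31 in tumour 6 and between 7.51 and 9.73 elsewhere. The list score was -1.36 in tumour 6 and -0.86 in tumour 1, and between -0.20 and 0.76 in the others.

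To see which genes varied with an index gene of each list, every other gene was regressed on that gene's level with limma. With Col1a1, a chain of type I collagen that ranged from 6.01 in tumour 6 to 8.27 in tumour 4, 1 gene passed an adjusted p of 0.05 (0.0104% of 9579 genes). That gene was Col5a1, a chain of type V collagen, with a slope of 1.02 (SE 0.10, limma adjusted p = 0.0201). It ranged from 6.90 in tumour 6 through 8.60 to 9.36 in tumour 7. Of the other 20 fibroblast genes 19 had a slope above 0, 15 of them at an unadjusted p under 0.05, where 5.28% of all genes had a positive slope at that threshold. Those that did not follow Col1a1 were Sparc, Pdgfra, Thy1 and Pdgfrb, with slopes of 0.28, 0.25, 0.11 and 0.02, and Fbln2, with -0.50. The call was lost without tumour 1, 2, 4, 6, 7 or 8, while 26 genes passed without tumour 3 and 7 without tumour 9.

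Adipoq, Car3 and Lep, which are fat cell genes, were highest in tumours 2 and 9. Adipoq, the adipocyte hormone adiponectin, read 10.31 in tumour 2 and 10.17 in tumour 9, with a median of 6.72 and a lowest value of 4.70 in tumour 1. Tumours 4 and 3 came next, at 9.02 and 8.50. Car3, carbonic anhydrase 3, which is abundant in fat and muscle, read 9.93 and 9.38 in the first pair and at most 7.59 elsewhere. Lep, leptin, read 8.28 and 8.09 in that pair and at most 7.14 elsewhere. Cidea, a lipid droplet protein, was highest in tumour 1 at 8.44, followed by 7.72 in tumour 2, and read 6.35 in tumour 9. Of 7 adipocyte genes measured, 3 had an SD of at least 1, against 2.76% of all genes. Of the 21 pairs of these genes 17 correlated above 0, with a mean r of 0.44.

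Muscle genes were highest in tumour 1. Acta1, the actin of skeletal muscle, read 7.90 in tumour 1 and at most 5.81 elsewhere, and Myl1, a myosin light chain, 8.70 there and at most 6.83 elsewhere. Mb, myoglobin, did not follow them: it ranged from 7.85 in tumour 7 to 10.12 in tumour 6, and was 9.46 in tumour 1. The mean pairwise correlation over 9 muscle genes was 0.17.

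Red cell genes moved as one. All 5 measured had an SD of at least 1, against 2.76% of all genes, and their mean pairwise correlation was 0.92, the highest of the lists. Hba-a1, an alpha-globin gene, ranged from 12.51 in tumour 9 through 13.61 to 15.90 in tumour 4, and its 4 highest values were in tumours 4, 1, 7 and 5. Alas2, the first enzyme of haem synthesis in red cells, was highest in the same 4 tumours. Endothelial genes spread much less. The largest SD of 15 measured was 0.67, for Vwf, which was detected in 4 tumours, and Pecam1, an adhesion protein of endothelium, ranged from 6.36 to 7.72.

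**Figure D3:**
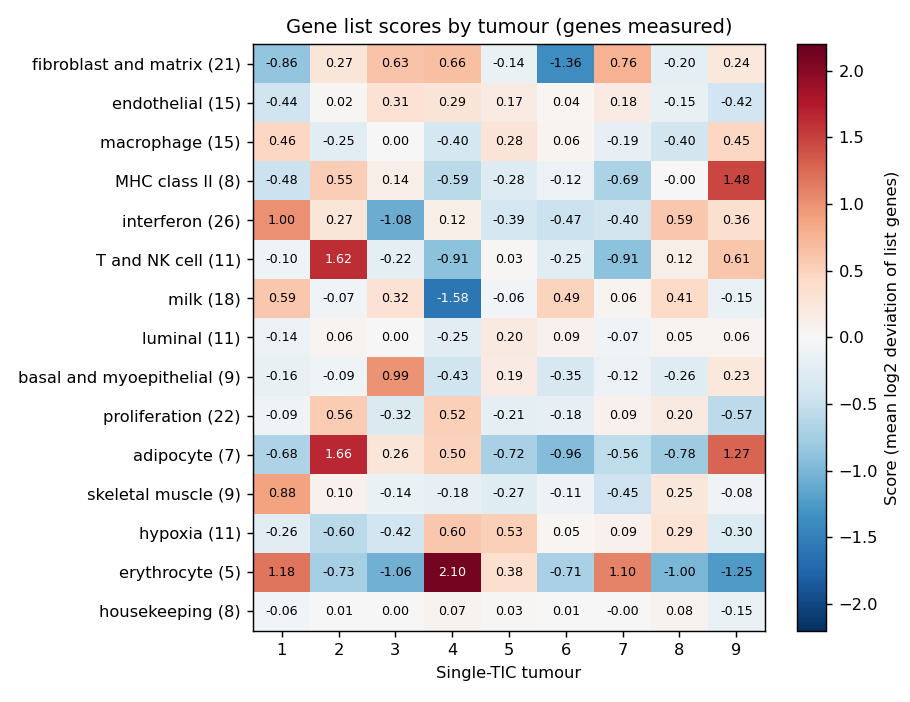
Score of each gene list (rows, genes measured in brackets) in tumours 1 to 9 (columns), as the mean log2 deviation of its genes from their 9-tumour means, by colour and printed value. The lowest values mark milk genes in tumour 4 and fibroblast genes in tumour 6, and the highest red cell genes in tumour 4.

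Immune lists differed in which tumour had the highest score. T and NK cell genes were highest in tumour 2. Of 11 measured, 5 had an SD of at least 1, against 2.76% of all genes. The score was 1.62 in tumour 2 and 0.61 in tumour 9, against -0.91 in tumours 4 and 7. Cd3d, a chain of the T cell receptor complex, read 9.34 in tumour 2, had a median of 6.65 and was lowest in tumour 7 at 5.72. Cd8b1, a chain of the CD8 co-receptor, read 9.97 in tumour 2 and at most 7.50 elsewhere. Prf1, perforin of cytotoxic cells, was highest in tumours 1 and 2 at 12.68 and 12.38, and lowest in tumour 7 at 9.28. All 55 pairs of the 11 genes correlated above 0. Tumour 2 was also high for Cd79b, a B cell receptor chain, at 8.90 against 5.27 to 5.91. It was high for Ccl21a, a chemokine of lymphoid tissue, at 9.59 against 4.63 to 5.96, and for Fcmr, an IgM receptor, at 9.26 against 4.88 to 5.62. Only 2 of 16 listed B and plasma cell genes were measured, and the other, Pou2af1, was highest in tumour 7 at 8.42.

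MHC class II genes, which present peptides to helper T cells, were highest in tumour 9. All 28 pairs of the 8 measured genes correlated above 0. Cd74, the invariant chain, ranged from 10.67 in tumour 7 through 11.58 to 13.57 in tumour 9. H2-Ab1, the class II beta chain, ranged from 10.58 in tumour 7 to 13.65 in tumour 9. Cxcl9, a chemokine induced by interferon gamma, read 12.23 in tumour 9 and at most 9.40 elsewhere. Gbp2b, a guanylate-binding protein, read 10.47 there and at most 7.91 elsewhere, and Ubd, a ubiquitin-like protein, 9.49 and at most 6.80. The MHC class II score had an r of 0.84 over the 9 tumours with the percentage of probes detected on the array (exact permutation p = 0.00202, adjusted p = 0.0847 over 42 relations), and the T and NK score an r of 0.80 (exact permutation p = 0.00470, adjusted p = 0.0987). The part of probe detection in these scores was not tested.

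Macrophage genes had a median SD of 0.47 over 15 measured genes. Laptm5, a lysosomal membrane protein of leukocytes, had the smallest SD of the list, 0.27, and ranged from 11.93 in tumour 4 to 12.69 in tumour 9. Lyz2, a lysozyme, had an SD of 0.60, Mrc1, a mannose receptor, 0.67, and Cd163, a scavenger receptor detected in 2 tumours, 0.69. Cd14, the co-receptor for bacterial lipopolysaccharide, had the largest SD of the list, 1.32, from 8.66 in tumour 4 to 12.19 in tumour 3. With Laptm5 as the index gene 0 genes passed in limma (0% of 9579), and 873 had an unadjusted p under 0.05. Of the 14 other macrophage genes 2 had a positive slope at an unadjusted p under 0.05, as did 10 of 11 T and NK cell genes, 5 of 8 MHC class II genes and 5.16% of all genes. Without tumour 4, 2 genes passed. S100a8, a neutrophil protein, was highest in tumour 1 at 8.74 and at most 7.50 elsewhere.

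Most genes of the interferon list varied together across the tumours, and the order of the list score differed from that of the MHC class II genes. Interferons are secreted antiviral signals, and many genes they induce carry interferon-stimulated response elements in their promoters. Of 26 genes measured 5 had an SD of at least 1, against 2.76% of all genes. The mean pairwise correlation was 0.69, and the score was 1.00 in tumour 1, 0.59 in tumour 8 and -1.08 in tumour 3. Cxcl9 is on this list and had its largest SD, 1.33, but was highest in tumour 9, as the MHC class II genes were. Ifit3, an antiviral protein that binds RNA, ranged from 9.34 in tumour 3 through 10.73 to 13.19 in tumour 1. Rsad2, the antiviral enzyme viperin, ranged from 8.67 in tumour 3 to 12.71 in tumour 1. Oas2, an oligoadenylate synthetase, was highest in tumours 8 and 1 at 10.39 and 10.03 and lowest in tumours 5 and 3 at 7.08 and 7.21. Isg15, a ubiquitin-like modifier, was highest in tumours 8 and 1 at 11.67 and 11.40 and lowest in tumour 3 at 9.46. Ifnb1, interferon beta itself, stood out in tumour 1, where it lay 2.32 above the next tumour, and read 4.59 to 5.68 in the others.

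With Isg15 as the index gene 4 genes passed in limma (0.0418% of 9579), all with positive slopes. Oasl2, an oligoadenylate synthetase-like protein, had a slope of 1.00 (SE 0.10, limma adjusted p = 0.0184), and Irf7, a transcription factor that amplifies the response, 1.17 (SE 0.13, limma adjusted p = 0.0315). The others were Oas1b and Dhx58, an RNA sensor, both with a limma adjusted p of 0.0398. Irf7 read 10.69 in tumour 1 and 10.32 in tumour 8, with 7.94 in tumour 3. Of 25 other interferon genes 23 had a positive slope at an unadjusted p under 0.05, where 3.27% of all genes did. The exceptions were Gbp2 and Cxcl9, with an unadjusted limma p of 0.185 and 0.373. Without any 1 tumour at most 2 genes passed, and 0 passed without tumour 2, 3, 5, 6, 8 or 9.

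The promoters of the whole list were searched on both strands for 2 copies of GAAA set 2 bases apart, the core of the interferon-stimulated response element. No expression value beyond detection entered the search, so the share found says nothing on how these genes moved. A RefSeq promoter window of 300 bases around the gene start (GRCm38.p6) was available for 21 of the 26 genes. The motif was in 11 of them (52.4%), against 3.99% of 27025 genes. Those of Isg15 (chr4:156200769-156201068, - strand), Ifit3 (chr19:34583279-34583578, + strand) and Rsad2 (chr12:26456403-26456702, - strand) are shown 5′ to 3′ with the matches in capitals. The 3 matches of Isg15 overlap each other. A match is a description of the letters and no measurement of binding.
Isg15: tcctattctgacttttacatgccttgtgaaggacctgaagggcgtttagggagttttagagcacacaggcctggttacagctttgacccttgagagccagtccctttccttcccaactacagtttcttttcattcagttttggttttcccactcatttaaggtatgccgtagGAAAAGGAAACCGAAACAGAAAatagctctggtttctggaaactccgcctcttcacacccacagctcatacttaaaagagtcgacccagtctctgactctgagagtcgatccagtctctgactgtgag
Ifit3: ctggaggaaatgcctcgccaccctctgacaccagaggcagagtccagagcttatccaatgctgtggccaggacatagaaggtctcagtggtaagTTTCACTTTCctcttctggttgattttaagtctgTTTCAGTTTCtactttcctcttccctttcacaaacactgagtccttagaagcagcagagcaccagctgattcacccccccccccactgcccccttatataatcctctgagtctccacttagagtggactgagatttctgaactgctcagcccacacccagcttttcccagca
Rsad2: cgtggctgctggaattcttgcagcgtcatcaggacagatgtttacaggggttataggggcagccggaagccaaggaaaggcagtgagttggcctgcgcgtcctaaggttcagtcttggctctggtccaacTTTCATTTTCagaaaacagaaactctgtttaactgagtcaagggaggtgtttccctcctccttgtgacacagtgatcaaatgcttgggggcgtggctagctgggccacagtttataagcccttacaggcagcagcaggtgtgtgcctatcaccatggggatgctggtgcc

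Proliferation genes had a narrow but shared spread. The median SD over 22 genes was 0.40 and 0 genes reached 1, where 2.76% of all genes did. Yet all 231 pairs correlated above 0 and the mean pairwise correlation was 0.80. The score was highest in tumours 2 and 4, at 0.56 and 0.52, and lowest in tumour 9 at -0.57. Top2a, the topoisomerase that untangles DNA in dividing cells, ranged from 9.70 in tumour 9 through 10.09 to 10.80 in tumour 2. Rrm2, a subunit of ribonucleotide reductase, had the largest SD of the list, 0.70, from 8.03 in tumour 9 to 10.51 in tumour 4, and an SD of 0.44 without tumour 4. Aurka, a kinase of the spindle poles, ranged from 8.84 in tumour 9 to 10.48 in tumour 4.

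With Top2a as the index gene 10 genes passed in limma (0.104% of 9579), 9 of them with a positive slope (0.094%), all with a limma adjusted p of 0.0499. Plk1, a kinase of mitosis, had a slope of 1.34 (SE 0.17), and Prc1, which bundles spindle microtubules, 1.00 (SE 0.13). Anln, Kif22, Ndc80, Cenpi and Iqgap3, which act in chromosome movement or cell division, and the histone genes H2ac7 and H2ac15 also had positive slopes. Hpgd, which inactivates prostaglandins, had a negative slope of -1.76 (SE 0.25), and ranged from 4.90 in tumour 4 to 6.95 in tumour 9. Without background correction, with an offset of 50 and in the authors' processed table the 24, 25 and 24 genes that passed all had positive slopes, so the call of Hpgd was lost. Of 21 other proliferation genes 20 had a positive slope at an unadjusted p under 0.05, where 5.47% of all genes did. With any 1 of the 9 tumours left out 0 genes passed.

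Cell cycle promoters carry the cell cycle homology region, searched here as TTTGAA, and CCAAT boxes. Among the 20 proliferation genes with a promoter window, 12 held TTTGAA (60.0%, against 20.2% of 27025 genes) and 16 held CCAAT (80.0%, against 41.1%). Both strands were searched, again with no expression value beyond detection. The windows of Top2a (chr11:99024140-99024439, - strand) and Plk1 (chr7:122159185-122159484, + strand), the index gene and one of the genes that varied with it, show both motifs in capitals.
Top2a: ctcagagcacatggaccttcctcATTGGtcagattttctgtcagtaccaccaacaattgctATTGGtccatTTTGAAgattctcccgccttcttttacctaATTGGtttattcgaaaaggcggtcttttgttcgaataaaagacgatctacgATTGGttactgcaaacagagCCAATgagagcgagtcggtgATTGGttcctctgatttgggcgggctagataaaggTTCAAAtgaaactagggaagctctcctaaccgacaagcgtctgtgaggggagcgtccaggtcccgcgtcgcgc
Plk1: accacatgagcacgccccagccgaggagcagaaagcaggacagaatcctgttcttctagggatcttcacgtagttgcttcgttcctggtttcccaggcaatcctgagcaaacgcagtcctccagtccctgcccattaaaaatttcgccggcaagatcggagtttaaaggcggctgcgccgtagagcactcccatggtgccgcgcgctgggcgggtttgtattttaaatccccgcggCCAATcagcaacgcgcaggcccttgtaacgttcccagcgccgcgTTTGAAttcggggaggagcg

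With Csn2 as the index gene 2 genes passed in limma (0.0209% of 9579). Sftpd, surfactant protein D, an innate immune lectin, had a slope of 1.27 (SE 0.13, limma adjusted p = 0.0211). It ranged from 4.75 in tumour 4 through 10.92 to 13.72 in tumour 1. Opn1mw, a cone opsin gene, had a slope of 0.32 (SE 0.03, limma adjusted p = 0.0239). Both calls depended on single tumours, since 0 genes passed without tumour 3, 4, 5, 6 or 8, while 1 passed without tumour 1 or tumour 2, 7 without tumour 7 and 6 without tumour 9. Of the 17 other milk genes 7 had a positive and 1 a negative slope at an unadjusted p under 0.05, where 4.50% of all genes had a positive one. STAT5, the transcription factor that prolactin activates, binds TTCNNNGAA. This motif was in 3 of 12 milk promoters, against 9.55% of 27025 genes, and the window of Csn2 (chr5:87699376-87699675, - strand) shows its match in capitals.
Csn2: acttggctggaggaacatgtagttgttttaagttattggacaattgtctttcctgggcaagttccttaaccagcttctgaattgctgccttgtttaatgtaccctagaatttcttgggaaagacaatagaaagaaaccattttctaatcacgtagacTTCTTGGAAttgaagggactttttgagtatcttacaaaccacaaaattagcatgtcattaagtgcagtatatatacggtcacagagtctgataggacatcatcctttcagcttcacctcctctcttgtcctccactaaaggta

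With Acta2, the smooth muscle actin of myoepithelial cells and vessel walls, 0 genes passed in limma (0% of 9579), and 333 had an unadjusted p under 0.05. It ranged from 10.69 in tumour 6 to 11.92 in tumour 1.

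Between the lists compared, no pair of scores correlated past the adjusted threshold. The comparison took the 12 cell type, immune, milk and proliferation lists with at least 5 measured genes. The red cell, hypoxia, reference gene and remaining lists were not paired, whatever their size. By an exact two-sided permutation test over 362880 pairings of the 9 tumours, 0 of 66 pairs had an adjusted p under 0.05. An unadjusted p under 0.05 was reached by 6. Macrophage and proliferation scores had the strongest relation, with Pearson's r = -0.80 (exact permutation p = 0.0121, adjusted p = 0.335) and Spearman's rho = -0.72 (exact permutation p = 0.0369, adjusted p = 0.406). Without tumours 1 and 9, the farthest from the median on the macrophage score, r was -0.80. Endothelial and interferon scores had an r of -0.78 (exact permutation p = 0.0122, adjusted p = 0.335) and a rho of -0.83 (exact permutation p = 0.00827, adjusted p = 0.379), and r was -0.68 without tumours 1 and 9. Interferon and skeletal muscle scores had an r of 0.76 (exact permutation p = 0.0152, adjusted p = 0.335) and a rho of 0.73 (exact permutation p = 0.0311, adjusted p = 0.406), and r was 0.79 without tumours 1 and 3. MHC class II and T and NK cell scores had an r of 0.71 (exact permutation p = 0.0404, adjusted p = 0.444) and a rho of 0.78 (exact permutation p = 0.0172, adjusted p = 0.379), and r was 0.70 without tumours 2 and 9. Endothelial and skeletal muscle scores had an r of -0.71 (exact permutation p = 0.0243, adjusted p = 0.401) and a rho of -0.80 (exact permutation p = 0.0138, adjusted p = 0.379), and r was -0.73 without tumours 1 and 9. MHC class II and adipocyte scores had an r of 0.68 (exact permutation p = 0.0362, adjusted p = 0.444) and a rho of 0.35 (exact permutation p = 0.359, adjusted p = 0.873). That relation rests on tumours 2 and 9, since r was -0.07 without them.

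**Figure D4:**
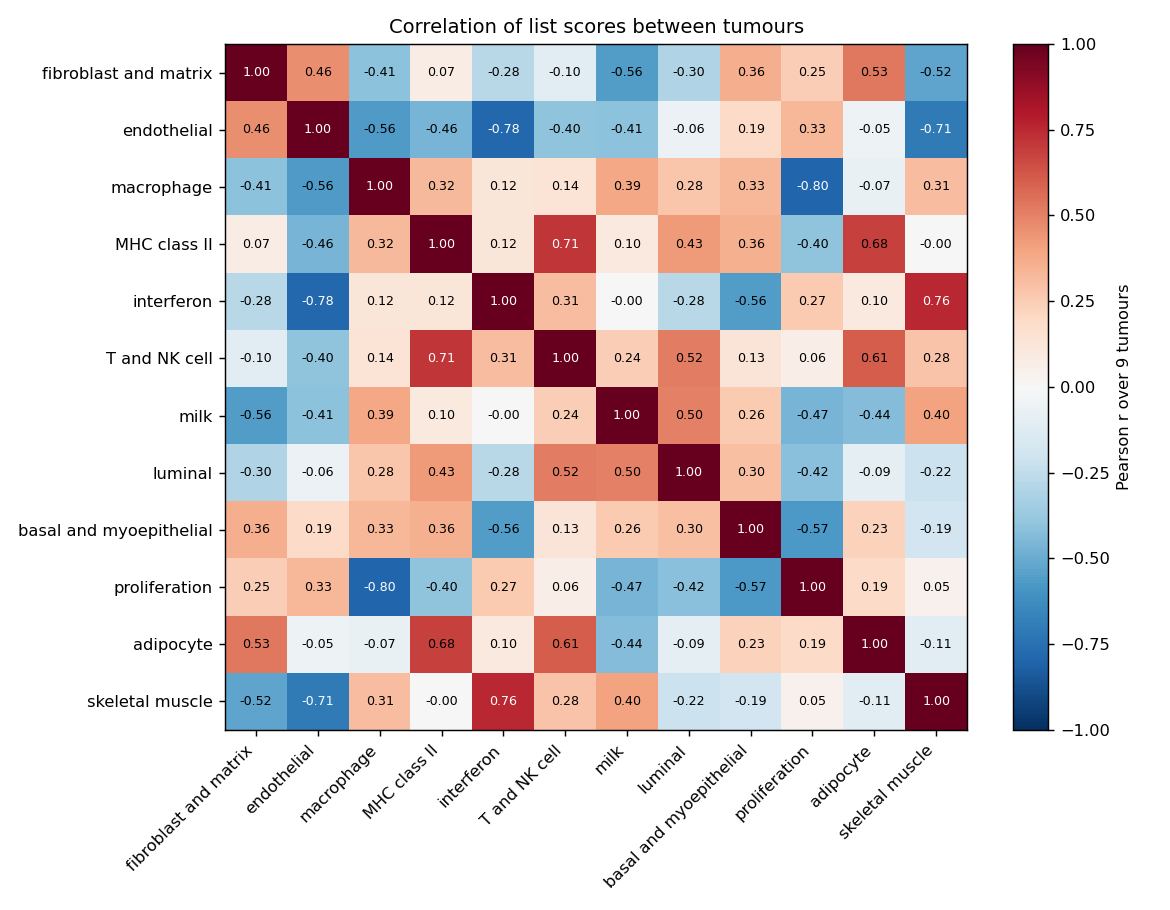
Pearson's r between the scores of 12 gene lists over the 9 tumours, by colour and printed value, with each list on both axes. The most negative value, -0.80, joins macrophage and proliferation genes, and none of the 66 pairs passed an adjusted p of 0.05.

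Low oxygen genes differed between tumours in a further way. Vegfa, the vessel growth factor, was highest in tumours 4 and 5 at 12.39 and 12.22 and lowest in tumour 9 at 10.32. Adm, adrenomedullin, a vasodilator peptide, was highest in the same 2 tumours at 8.17 and 7.93, and lowest in tumour 3 at 5.28. The hypoxia list score was highest in these tumours, at 0.60 and 0.53.

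The smallest SDs were those of single bright probes, since each gene is read from 1 probe. After Csn3 came Lcn2, the iron-scavenging lipocalin, with an SD of 0.034, and Rpl23 of the ribosome with 0.043. Another probe of Rpl23 ranged from 10.12 to 11.12, with an SD of 0.28. Of the 10 smallest SDs 6 belonged to genes with a mean above 15, close to the highest value of any gene on the scale, 15.98, where the array compresses differences. Genes well below that ceiling, with a mean of at most 14, were therefore also ranked, a limit set after the values were seen. The smallest SDs there were 0.047 for Tcf25, 0.048 for Psmb6, a proteasome subunit, and 0.053 for both Rap1b, a small GTPase, and Eif3a, a translation initiation factor. These SDs hold for the probe used. A dimmer probe of Tcf25 ranged from 8.91 to 9.59 with an SD of 0.23, and one of Eif3a had an SD of 0.14, while Psmb6 and Rap1b have 1 kept probe each. Of the genes often used as references, Hprt had an SD of 0.11 (0.27 for a dimmer probe) and Ywhaz also 0.11. Gusb had 0.13, Tbp 0.15 (0.094 without tumour 7) and Actb 0.17. Dimmer probes spread more, with SDs of 0.20 and 0.23 for Gusb and 0.24, 0.26, 0.58 and 0.61 for Actb. Gapdh, a glycolytic enzyme, had an SD of 0.41 (95% interval 0.27 to 0.78), from 14.32 in tumour 9 to 15.66 in tumour 4.

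Whole stretches of chromosomes also moved in single tumours. Genes detected on all 9 arrays were placed on chromosomes with the RefSeq table (7839 of 7842), and the median deviation from the 9-tumour mean was taken for each chromosome and tumour, after the values had been seen. On chromosome 5 the median of 501 genes was 0.41 in tumour 4 and between -0.08 and -0.01 in the other 8 tumours, and 438 of the 501 genes lay above 0 in tumour 4. The shift was alike along the chromosome, from 0.37 to 0.44 in 5 blocks of equal gene number. Csn2, which was lowest in tumour 4, lies on this chromosome. On chromosome 4 the last 2 of 5 blocks, 196 genes, had a median of -0.67 in tumour 1, where 183 lay below 0, and of 0.04 in its first 2 blocks. In tumour 2 the same 196 genes had a median of -0.16, and in tumours 3 to 9 it lay between -0.03 and 0.17.

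On chromosome 2 the tumours fell on both sides of 0. The median of 631 genes was 0.23 in tumour 4, 0.21 in tumour 7, 0.16 in tumour 8 and 0.15 in tumour 1, it was 0.02 in tumour 2, and it lay between -0.22 and -0.14 in tumours 3, 5, 6 and 9. Tumour 1 was split along the chromosome, with a median of -0.12 in the first 2 blocks (253 genes) and 0.28 in the last 3 (378 genes). On the other 17 chromosomes the medians lay between -0.17 and 0.08. Chromosome 11, which carries the HOXB cluster, had medians of 0.01 in both tumours 1 and 2. DNA copy number was not measured in these samples, and its part in the shifts was not tested.

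**Figure D5:**
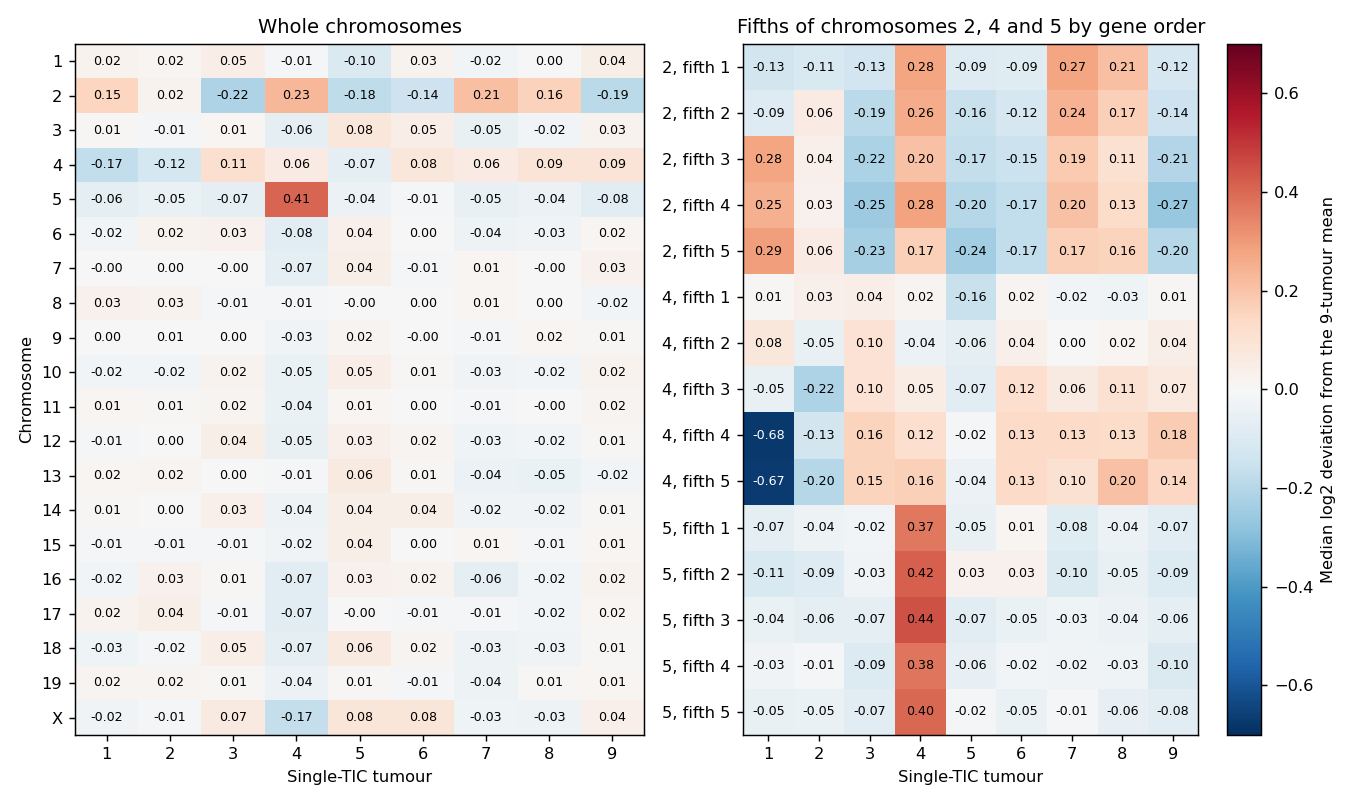
Median log2 deviation of genes from their 9-tumour mean in tumours 1 to 9 (columns), by chromosome (left) and by 5 blocks of equal gene number along chromosomes 2, 4 and 5 (right). Chromosome 5 in tumour 4 reads 0.41, and the last 2 blocks of chromosome 4 in tumour 1 read -0.68 and -0.67.

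Compared gene by gene, the tumours most alike were 3 and 6, with a correlation of 0.987 across 9580 genes, which are not independent replicates, and 201 genes differing by 1 or more on the log2 scale. Tumours 4 and 6 were least alike, with a correlation of 0.947 and 1029 such genes. Tumours 1 and 2, which shared high HOXB genes, differed by that much in 567 genes, and tumours 7 and 8, which shared Tfap2b, in 411. Tumour 4 had the lowest mean correlation with the other 8, 0.960, and tumour 8 the highest, 0.977.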

How the data were processed

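Total RNA of 16 MMTV-Neu tumours was measured on 1 bead array each, and the 9 single-TIC tumours were grouped by their sample descriptions. Per the file headers, the non-normalized table that was deposited pairs a linear intensity with a detection p-value for each of 25697 probes in each tumour. The authors' deposited processed table holds intensity values that share the ranks of the non-normalized ones. The submitters' processing notes name BeadStudio, whose version and background steps were not given in the sources used here.

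Background was corrected with limma 3.58.1 in R 4.3.3 (nec from the detection p-values, offset 16) over all 16 arrays, followed by quantile normalization and log2. Probes detected at p under 0.05 on at least 2 of the 9 arrays were kept, 14014 in all, 13213 of them with a symbol. For each of the 9580 genes, the kept probe that was brightest on average over the 9 tumours was used. The array annotation gave 1 symbol for 23978 probes and none for 1719. RefSeq (GRCm38.p6) supplied chromosome, gene order and promoter windows.

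SDs have 95% chi-square intervals. List scores were compared by exact two-sided permutation tests over tumours with Benjamini-Hochberg adjustment (Python 3.11.15, scipy 1.17.1). Genes were regressed on 6 index genes with lmFit and eBayes, adjusted over 9579 genes. The fit was tested on simulated data. Genes named in the text are the 20 largest and 10 smallest SDs, the 4 most variable members of each list (fewer where fewer were measured), genes past the threshold with an index gene, the index genes and reference genes. Others, such as the HOX genes and those with a gap between tumours, were named after their values were seen. The members and lists were chosen with earlier results of these data known. No batch or scan date is given in the files used here, and 1 array per tumour limits the precision.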

Additional observations from a re-analysis of the deposited data

Results flagged for a closer look

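A sample far from the other 8 was looked for by Dixon's ratio, the gap of the extreme tumour to its neighbour divided by the range of all 9. Its 95% critical value was exceeded in 34 of 171 values tested (named genes, list scores and chromosome medians). Chance flags about 1 in 20 groups, and many of these genes were chosen for their spread, so the number is no evidence in itself.

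Tumour 1 was the highest for Dcpp1 (0.760), Hoxb7 (0.821), S100a8 (0.523), Acta1 (0.632), Atp2a1 (0.551) and the neutrophil score (0.636). It was the lowest for Slc6a2 (0.792), Vsnl1 (0.790) and Rplp1 (0.687). Tumour 2 was the highest for Glycam1 (0.591), Cd8b1 (0.605), Cd79b (0.823), Ccl21a (0.731), Fcmr (0.831) and Cd6 (0.620). Tumour 3 was the highest for the basal and myoepithelial score (0.530).

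Tumour 4 was the lowest for the milk score (0.659), Btn1a1 (0.649), Cp (0.613), Clu (0.569), Ramp1 (0.590) and Vdr (0.566), and the highest for the chromosome 5 median (0.860). Tumour 5 was the highest for Sbsn (0.665). Tumour 6 was the lowest for Dcn (0.572), Fbln1 (0.497) and Col5a1 (0.495) of the fibroblast and matrix list. It was also the lowest for Pdpn (0.520) of the basal and myoepithelial list and for Lox (0.532), which is on neither list. Tumour 7 was the lowest for Tbp (0.512). Tumour 9 was the highest for H2-Aa (0.572), Cxcl9 (0.634), Ubd (0.617) and Gbp2b (0.552).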

How the results depend on the processing

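The number of genes with a between-tumour SD of at least 1, reported as 264, was 80 without background correction, 161 with an offset of 50, 86 in the authors' processed table and 126 when detection on all 9 arrays was asked for. Leaving out each tumour in turn gave 226 to 284. Without background correction dim genes are compressed. Of the SDs of 125 named genes, 845 of 956 values under other settings lay within the 95% interval of the reported SD, 53 genes fell outside it under at least 1 setting and 31 when 1 tumour was left out, which lowered the SD by over 1.5 times in 27.

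The genes that varied with an index gene depended on settings and on single tumours. With Col1a1 there was 1, against 9 with mean raw intensity as a covariate and 43 with the list score as index, and 0 to 26 leaving out each tumour. With Laptm5 there were 0, against 1 with no filter, and 0 to 2 leaving out each tumour. With Isg15 there were 4, against 2 with the mean of probes and 16 with the list score, and 0 to 2 leaving out each tumour. With Csn2 there were 2, against 0 without background correction and 0 in the processed table, 1 with detection on all 9 arrays, 1 with mean raw intensity and 30 with the list score, and 0 to 7 leaving out each tumour. With Top2a there were 10, against 0 with the 9 arrays normalized alone, 0 with cyclic loess and 0 with mean raw intensity. The same count was 24 without background correction, 25 with an offset of 50, 24 in the processed table, 26 with detection on all 9 arrays, 27 with no filter and 64 with the list score, and 0 to 0 leaving out each tumour. The cause was not tested. A list score holds the list's own members, which then count among the genes that pass. With Acta2 and between list scores there were 0 under each setting run and leaving out each tumour (0 to 0).

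The chromosome 5 median of tumour 4 was 0.41 and lay between 0.33 and 0.41 over the settings, all chosen after seeing the data, and the median of the last 2 blocks of chromosome 4 in tumour 1 was -0.54 without background correction, against -0.67. Genes with a gap of at least 2 numbered 73, and 29 when detection on all 9 arrays was asked for. No paired analysis was possible because the 9 tumours form 1 group whose labels carry no replicate number. Probes near background limit the SDs of dim genes.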

Other observations

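Neighbouring genes that both had an SD of at least 1 were compared, with r given over 9 tumours that share the array and the RNA. Of 264 such genes 262 were placed on chromosomes, and 21 pairs of consecutive ones lay side by side or with 1 gene between them. Of these 18 had an r above 0 and 13 an r above 0.8 (61.9%), against 3.75% of the 34170 other pairs of these genes. Those above 0.8 included the neighbouring HOXB pairs, Hoxa5 with Hoxa7, and Cd3d with both Cd3g and Cd3e. Pairs that share a gene are not independent. Evc and Evc2, adjacent genes of hedgehog signalling on chromosome 5, had an r of 0.96. Cd177, a neutrophil surface protein in blood, and the adjacent Ceacam10 had an r of 0.99, and Bglap and Bglap2, which encode osteocalcin and are near-identical copies whose probes may share targets, 0.98. Mmp13 and Mmp12, adjacent matrix protease genes on chromosome 9, had an r of 0.91, while Mmp12 and Mmp3, 1 gene apart from it, had an r of -0.38. Paqr6 and Bglap2 had an r of -0.37, Scara3 and Clu -0.21, and Htr5b and Dpp10 0.20. Cd3d and Cd3e had an r of 0.96.

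Npy, neuropeptide Y, was the gene with the third largest SD, 3.19. It read 5.08 in tumour 4 and 7.89 in tumour 1, and between 11.15 and 14.65 in the other 7 tumours. Fermt1, an integrin activator of epithelial cells, was low in tumour 7 alone, at 5.56 against 9.36 to 11.32. Cldn2, a claudin of leaky tight junctions, was high in tumours 4, 5 and 9, at 12.10, 11.65 and 11.97, against 7.03 to 8.52.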
